A study of Mus musculus with 2 samples.

Results

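The genes described here are 10 genes of the pluripotency programme, Pou5f1, Nanog, Sox2, Klf4, Sall4, Utf1, Zfp42, Dppa3, Lin28a and Tdgf1, as they were methylated in mouse embryonic fibroblasts (MEFs). They were chosen by name, and every cytosine covered between 2 kb upstream of a gene's 5′ end and its 3′ end was assigned to it. This window held 421 of the 826937 covered positions, and 9 of the 10 genes had at least 1. Nanog had none. The study compared wt MEFs with βerko MEFs (genotype ESR2 -/-), which lack oestrogen receptor β, both of strain C57BL/6 and grown in the same medium. Methylation was measured by reduced representation bisulfite sequencing (RRBS), in which DNA is cut by MspI at CCGG and fragments of 160 to 340 bp are treated with bisulfite. A cytosine still read as cytosine counts as methylated. According to the study, methylcytosine and hydroxymethylcytosine were not told apart, so that both count as methylated here. There was 1 library per genotype, made from the pooled DNA of 3 batches, so that genotype and library cannot be told apart and no test between genotypes was possible. All values below are the deposited percentages of methylated reads for these 2 libraries. The labels give neither the age of the embryos nor whether the batches came from separate animals.

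Pou5f1, Nanog and Sox2 encode the transcription factors at the core of the network that keeps embryonic stem cells undifferentiated. In fibroblasts these genes are silent and several of their promoters carry DNA methylation, which has to be removed when fibroblasts are reprogrammed. Promoters rich in CpGs are usually unmethylated in every tissue whether or not the gene is active, whereas CpG-poor promoters and gene bodies are usually methylated. In pooled DNA an intermediate percentage can come from cells, alleles or molecules that differ, which cannot be told apart.

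Each of the 826937 positions was a cytosine of a CpG in the genome build NCBIM37 (mm9). Coverage was given for 8071 positions, deposited as differentially methylated positions (DMPs), and not for the other positions, so that the depth behind most values is unknown. At the DMPs in these genes that had more than 4 reads in both libraries it ran from 5 to 104 reads in wt and from 18 to 78 reads in βerko MEFs. The deletion of Esr2 cannot be checked from methylation. Promoter methylation could be classed, with at least 3 covered positions, for 7 of 11 fibroblast markers. Vim (0 % in wt and 0 % in βerko MEFs) and S100a4 (50 % and 58.9 %) had only 2 positions each. Among the 7, promoter methylation was below 20 % in both libraries at Fn1 (0.377 % and 0 %), Pdgfrb (1.15 % and 1.22 %) and Twist1 (18.3 % and 13.1 %). It was lower in βerko MEFs at Col1a1 (48.5 % and 15.4 %), Col1a2 (93.6 % and 48.3 %) and Prrx1 (89.8 % and 60.2 %), and Pdgfra had 87.5 % and 77.2 %. Of the epithelial markers, Krt18 had 61.7 % and 41.5 %, and Cdh1 had 22.7 % and 9.94 %. None of the 4 blood markers had enough positions. Expression was not analysed here, and whether the makeup of the cultures has a part in the values below was not tested.

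With the 421 positions of the pluripotency genes pooled, intermediate methylation was the most frequent class in wt MEFs, and low methylation in βerko MEFs. Between 20 and 80 % lay 44.9 % of their positions in wt and 22.6 % in βerko MEFs, compared with 17.2 % and 15.1 % of all covered positions. Below 20 % lay 32.3 % in wt and 62.9 % in βerko MEFs, compared with 50.3 % and 53.4 % of all positions. The positions averaged 43.8 % in wt and 27.4 % in βerko MEFs, a difference of -16.4 percentage points, while over all positions it was 40.7 % and 38.8 %, a difference of -1.89 points. At 171 positions methylation was at least 20 points lower in βerko MEFs, which is 40.6 % of them beside 10.4 % of all positions, and at 57, or 13.5 % beside 2.92 %, it was at least 50 points lower. At 22 positions, or 5.23 % beside 6.81 %, it was at least 20 points higher, and at 5, or 1.19 % beside 1.47 %, at least 50 points higher. A position can be lower only where it was methylated in wt. Of the 285 positions at or above 20 % in wt, 60 % were at least 20 points lower, and of all such positions 20.9 % were. Neighbouring positions are often read on the same fragments, so that these shares do not count independent events. Klf4, Sall4 and Utf1 held 52, 45 and 29 of the 171 lower positions. By gene, the intermediate class was the most frequent in wt MEFs only in Sall4 (65 of 107) and Utf1 (28 of 43). Positions below 20 % were the most frequent in Klf4, Sox2 and Lin28a, and those above 80 % in Pou5f1, Zfp42, Dppa3 and Tdgf1. In βerko MEFs low methylation was the most frequent class except in Pou5f1, Zfp42 and Tdgf1.

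**Figure D1:**
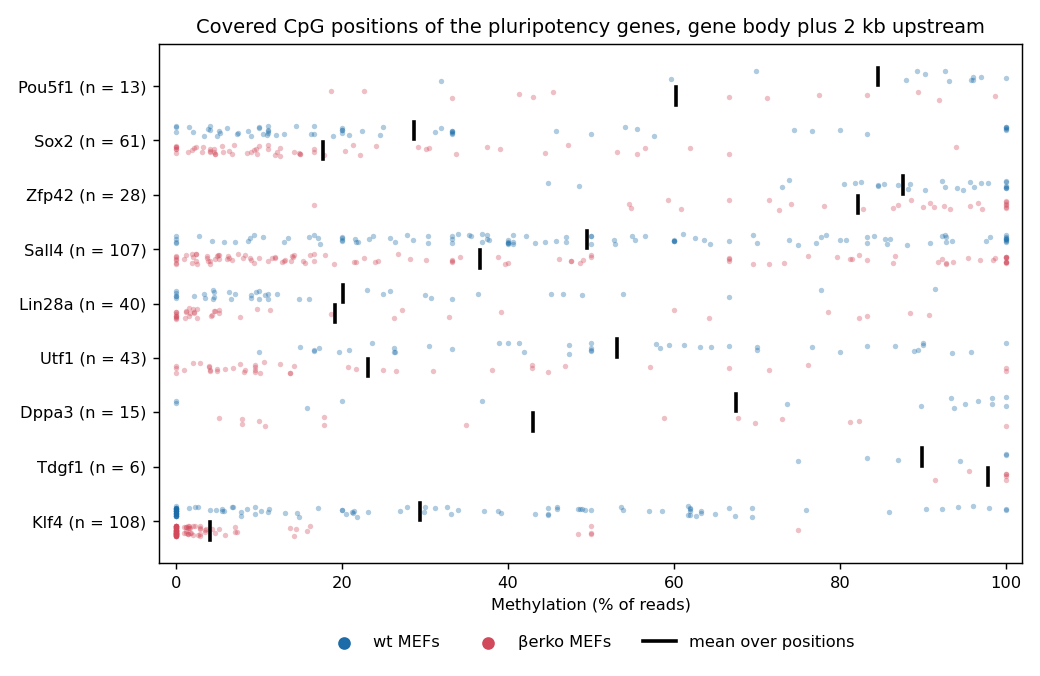
Methylation of every covered position of the 9 genes with a covered position, in percent of reads on the horizontal axis, with blue points for wt and red points for βerko MEFs and a black bar at the mean over positions. In Klf4 the βerko points gather near 0 with a mean of 4.12 %, while those of Zfp42 and Tdgf1 stay above 80 % on average in both libraries.

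The positions were spread unevenly over the genes, with 108 in Klf4, 107 in Sall4, 61 in Sox2, 43 in Utf1, 40 in Lin28a, 28 in Zfp42, 15 in Dppa3, 13 in Pou5f1 and 6 in Tdgf1. Every one of them lay within 35 bp of a CCGG, as the method implies. The windows held from 3 CCGG in Nanog to 61 in Sall4. Among those with few covered positions, Pou5f1 had 17 such sites and Tdgf1 had 10.

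The window mean was at least 20 points lower in βerko MEFs in 4 genes, namely Utf1 (-30.0 points), Klf4 (-25.3), Dppa3 (-24.4) and Pou5f1 (-24.3), and in none was it higher. By the same rule, with at least 3 covered positions, 3.37 % of 16211 protein-coding genes were lower and 0.956 % were higher. All 9 genes were at or above 20 % in wt MEFs, and of all such genes 5.43 % were lower. Sall4 (49.6 % in wt and 36.7 % in βerko MEFs) and Sox2 (28.7 % and 17.8 %) differed by -12.9 and -10.9 points. Lin28a (20.2 % and 19.2 %), Zfp42 (87.7 % and 82.2 %) and Tdgf1 (89.97 % and 97.8 %) differed by less than 10 points.

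Promoters, taken from 2 kb upstream to 500 bp downstream of the 5′ end, could be classed with at least 3 positions in 7 of the 10 genes. Klf4 (0.957 % in wt and 0.225 % in βerko MEFs) and Lin28a (9.29 % and 3.03 %) were unmethylated, below 20 %, in both libraries. Tdgf1 was methylated, above 80 %, in both (91.7 % and 100 %). Zfp42 was methylated in wt and intermediate in βerko MEFs (92.5 % and 68.9 %). Sox2 (47.2 % and 22.7 %) and Utf1 (53.5 % and 24.3 %) were intermediate in both libraries, although 15 of 21 positions of Sox2 and 23 of 37 of Utf1 were below 20 % in βerko MEFs, with medians of 12.2 % and 10.2 %. Sall4 was intermediate in wt and methylated in βerko MEFs (60.6 % and 81.6 %). Pou5f1, Nanog and Dppa3 had no covered position in their promoters, so that nothing can be said about these 3.

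Sox2, Zfp42 and Utf1 were thus lower in βerko MEFs by at least 20 points, where 5.39 % of 12914 protein-coding genes were. Of the 5 classed promoters at or above 20 % in wt these are 3, beside 23.9 % of all such promoters. Among the fibroblast markers 3 of 4 such promoters were lower. The difference of Sox2 was -20.3 points with strands averaged, close to the limit. Its promoter positions in the coding exon that were at least 20 points lower all lay on the minus strand. They had 20, 80 or 100 % in wt, and the position at 474 bp had only 5 reads there. The plus-strand positions of this part were at most 14.3 % in either library, as described below. Whether Sox2 would be called lower without these minus-strand positions was not tested. Sall4 was higher, where 0.813 % of all genes were. Its value rested on 3 positions far upstream and did not hold for the start of its coding transcript, as described below. Of all classed promoters, 77.4 % were below 20 % in wt and 81.9 % in βerko MEFs, whereas 2 of the 7 were in each library.

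**Figure D2:**
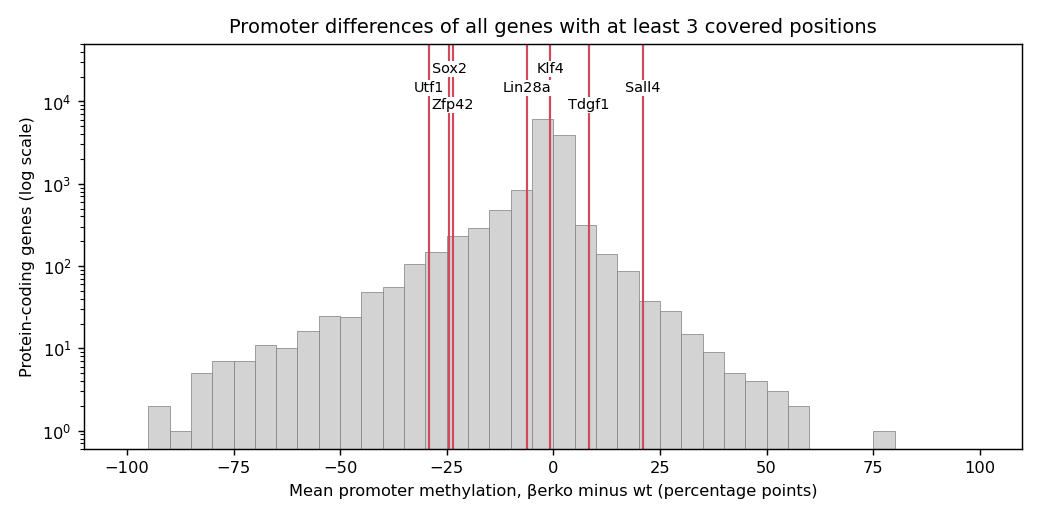
Distribution of the mean promoter difference, βerko minus wt in percentage points, over the 12914 protein-coding genes with at least 3 covered promoter positions, with the number of genes on a logarithmic axis and red lines at the 7 classed pluripotency genes. Utf1, Sox2 and Zfp42 lie below -20 points and Sall4 at 21.0 points, while Klf4 lies in the peak around 0.

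Pou5f1 encodes Oct4, the POU-domain factor without which the pluripotent cells of the embryo do not form. Its promoter was not covered, although it held 48 CpGs and 5 CCGG. The 300 bases before its 5′ end, at chr17:35642682-35642981 on the plus strand, are shown with their 10 CpGs in capitals to mark what was not measured, followed by the first covered intron stretch at chr17:35643522-35643557, in which capitals mark the 3 covered CpGs.
Pou5f1 upstream: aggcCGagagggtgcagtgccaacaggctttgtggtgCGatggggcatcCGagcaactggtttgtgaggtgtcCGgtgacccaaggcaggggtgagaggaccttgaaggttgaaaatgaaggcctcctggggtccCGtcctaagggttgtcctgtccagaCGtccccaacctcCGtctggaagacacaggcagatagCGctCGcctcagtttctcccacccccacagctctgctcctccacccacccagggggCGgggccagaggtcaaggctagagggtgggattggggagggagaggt
Pou5f1 intron: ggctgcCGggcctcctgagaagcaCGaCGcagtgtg

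The 13 covered positions of Pou5f1 lay between 546 and 2152 bp after the 5′ end, in introns and in 2 cases in the 5′ UTR of a transcript that starts further down. In wt MEFs 10 of them were above 80 %, and in βerko MEFs 4 were. The first CpG of the intron stretch above had 100 % in wt and 22.7 % in βerko MEFs, while the next, at 564 bp, had 90.2 % and 71.2 %, and the last had 92.7 % and 89.4 %. Large and small differences thus stood side by side. The same was seen at 1228 bp (95.8 % and 98.7 %) and 1239 bp (93.2 % and 41.3 %), on the same strand. At 1219 bp methylation was higher in βerko MEFs (69.9 % and 92 %). At 2013 bp it was 96 % and 45.5 %. In all, 6 positions were at least 20 points lower, 1 was higher, and none met the criteria for a DMP.

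Nanog encodes a homeobox factor of the same core network. Its window of 9145 bp held 118 CpGs but only 3 CCGG, and its promoter of 38 CpGs held none, whereas 88.4 % of all promoters held at least 1 and the median promoter held 6. The 300 bases before its 5′ end, at chr6:122657207-122657506 on the plus strand, have 3 CpGs, here in capitals, and the median over all genes is 9.
Nanog upstream: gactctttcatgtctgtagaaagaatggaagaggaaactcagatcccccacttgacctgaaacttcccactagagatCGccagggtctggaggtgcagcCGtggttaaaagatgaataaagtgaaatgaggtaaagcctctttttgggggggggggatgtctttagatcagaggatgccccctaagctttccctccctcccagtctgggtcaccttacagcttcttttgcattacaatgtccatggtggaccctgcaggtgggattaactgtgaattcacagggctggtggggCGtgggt
Without a CCGG no RRBS fragment starts in this promoter. No position of Nanog was among those covered in both libraries, and positions covered in only one of them are not in the values used here.

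Sox2 encodes the HMG-box factor that binds DNA together with Oct4. Its promoter is rich in CpGs, with an observed to expected ratio of 0.714 beside a median of 0.390 over all promoters. Its promoter value joins 9 positions from -1119 to -1043 bp (negative distances lie upstream of the 5′ end) with positions from 445 to 500 bp in the coding exon, and nothing between these groups was covered. The covered part upstream of the 5′ end, at chr3:34547805-34547887 on the plus strand, is shown with its 8 covered CpGs in capitals. It held 1 of the 2 positions of the gene that could be tested. The lincRNA gene Sox2ot spans the whole window on the same strand, so that these CpGs belong to both genes.
Sox2 upstream: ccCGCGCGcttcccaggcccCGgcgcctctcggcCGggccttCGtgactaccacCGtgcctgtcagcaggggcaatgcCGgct

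In this stretch 9 positions averaged 57.2 % in wt and 28.5 % in βerko MEFs. The CpG at -1068 bp, chr3:34547859, had 83.3 % of 18 reads in wt (exact 95 % confidence interval 58.6 to 96.4 %) and 12.2 % of 49 reads in βerko MEFs (4.63 to 24.8 %), with an adjusted p-value of 1.46e-05 by Fisher's exact test. Its minus strand had 74.5 % and 14.9 %, close to the plus strand. The CpG at -1043 bp had 76.6 % and 17.9 %. The next covered CpGs upstream differed less, with 100 % and 94 % at -1080 bp and 55.6 % and 62 % at -1088 bp. Confidence intervals and p-values of this kind cover the counting error of reads only. They compare 2 libraries, not genotypes, and after PCR without molecular identifiers several reads can stem from 1 molecule. Reads could be tested only at deposited DMPs, which were chosen for a large difference in these same reads. Passing the test is therefore no independent support for such a difference, here or in the genes below.

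The 52 positions in the single coding exon of Sox2 averaged 23.7 % in wt and 15.9 % in βerko MEFs. Of these, 31 were below 20 % in wt and 37 in βerko MEFs. Between 474 and 503 bp after the 5′ end 4 positions on the minus strand had 100 % in wt, with 11.1, 22.2, 66.7 and 44.4 % in βerko MEFs. The plus strand of the first of these CpGs had 7.41 % and 6.38 %, and that of the next had 11.1 % and 14.3 %. The large difference was therefore seen on the minus strand and not on the plus strand of the same CpGs. The first of the minus-strand positions met the criteria for a DMP with 100 % of 5 reads in wt (47.8 to 100 %) and 11.1 % of 18 reads in βerko MEFs (1.38 to 34.7 %). Its adjusted p-value of 0.0715 by Fisher's exact test missed the threshold of 0.05.

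Klf4 encodes a Krüppel-like zinc-finger factor that supports self-renewal, is used for reprogramming, and is also expressed in many differentiated cells. Around the 5′ end it was unmethylated in both libraries, whereas further into the gene it was intermediate in wt and nearly unmethylated in βerko MEFs. A stretch from each side is shown on the minus strand, on which the gene lies, with the covered CpGs in capitals. The upstream stretch is at chr4:55545907-55546007, and the coding stretch, with covered positions from 1539 to 1788 bp after the 5′ end, is at chr4:55543557-55543812.
Klf4 upstream: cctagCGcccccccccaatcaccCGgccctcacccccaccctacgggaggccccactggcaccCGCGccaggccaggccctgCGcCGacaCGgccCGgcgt
Klf4 coding exon: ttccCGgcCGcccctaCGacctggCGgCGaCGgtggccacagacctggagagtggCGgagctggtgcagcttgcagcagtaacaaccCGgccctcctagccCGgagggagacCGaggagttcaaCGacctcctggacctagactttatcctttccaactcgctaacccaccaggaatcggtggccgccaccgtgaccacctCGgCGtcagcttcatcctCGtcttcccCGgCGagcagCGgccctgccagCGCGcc

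The 8 positions of the upstream stretch averaged 1.02 % in wt and 0.469 % in βerko MEFs, with a highest value of 5.8 %. The 22 positions of the coding stretch averaged 66.8 % in wt, with values from 32.7 to 100 %, and 14.7 % in βerko MEFs, with values from 0 to 75 %. Along the gene the wt values went up with distance. They averaged 0.0671 % over the first 500 bp, 9.91 % from 500 to 1000 bp, 30.5 % from 1000 to 1500 bp and 61.4 % from 1500 to 2000 bp. In βerko MEFs the same bins held 0.0888, 2.10, 1.13 and 11.1 %. From 2000 to 2500 bp, 9 positions had 49.1 % and 1.72 %. Thus both libraries were near 0 at the 5′ end, and their bin means were more than 20 points apart from 1000 bp onwards.

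**Figure D3:**
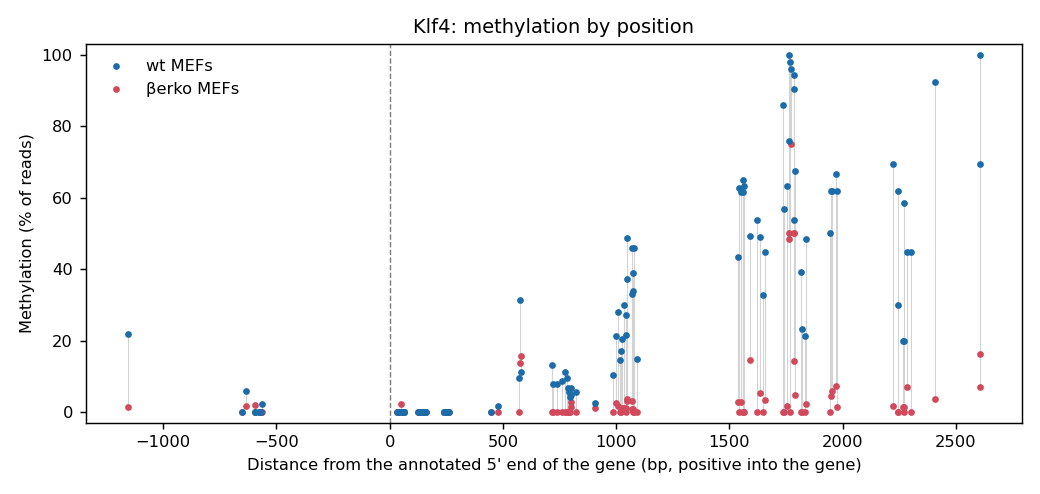
Methylation of the 108 covered positions of Klf4 in percent of reads against the distance from the 5′ end in bp, with blue points for wt and red points for βerko MEFs, a grey line joining both values of a position, and a dashed line at the 5′ end. Over the first 500 bp both libraries lie near 0, and from 1500 to 2000 bp the blue points average 61.4 % and the red points 11.1 %.

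By feature, the 52 positions in coding exons of Klf4 had 49.7 % in wt and 7.45 % in βerko MEFs, and all 52 were lower in βerko MEFs. The 18 positions in introns had 27.3 % and 1.16 %, and again all 18 were lower. The 29 positions in the 5′ UTR had 2.57 % and 1.09 %, with 22 of them equal in both libraries. Of all 108 positions, 52 were at least 20 points lower and none was at least 20 points higher. Less was lost at some positions of the coding stretch. The CpG at 1763 and 1764 bp had 50 % on the minus and 48.4 % on the plus strand in βerko MEFs, with 100 % and 75.9 % in wt. Minus-strand positions at 1773, 1785 and 1787 bp had 96, 90.4 and 94.2 % in wt and 75, 50 and 50 % in βerko MEFs. The plus strand at 1786 and 1788 bp had 14.3 and 4.76 % in βerko MEFs. Between them, the minus-strand position at 1766 bp had only 4 reads in βerko MEFs. The depth of the others is unknown, but their minus-strand values in βerko MEFs, 50 or 75 %, are ones that 4 reads can give.

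Both DMPs of Klf4 passed Fisher's exact test. At chr4:55542938, 2409 bp after the 5′ end, methylation was 92.3 % of 104 reads in wt (85.4 to 96.6 %) and 3.57 % of 56 reads in βerko MEFs (0.435 to 12.3 %), with an adjusted p-value of 7.75e-28. At chr4:55543610, 1737 bp after the 5′ end, it was 85.9 % of 78 reads in wt (76.2 to 92.7 %) and 0 % of 64 reads in βerko MEFs, for which the upper bound of the exact interval is 5.60 %, with an adjusted p-value of 5.77e-26. The gene had 2 further positions with larger differences, 98.0 % and 0 % at 1766 bp and 100 % and 7.14 % at 2606 bp. Each had exactly 4 reads in one of the libraries and so missed the criterion of more than 4.

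Sall4 encodes a zinc-finger factor that works with Oct4 in embryonic stem cells. Its annotated 5′ end comes from a noncoding transcript, and the coding transcripts start 742 bp further into the gene. The lincRNA gene Gm14261 overlaps this region on the other strand. Upstream of the annotated 5′ end 3 positions were covered, between -1532 and -1316 bp. They had 92.3, 55.3 and 34.0 % in wt and 71.4, 73.3 and 100 % in βerko MEFs, so that 1 was lower and 2 were higher. When the promoter was taken from the start of the coding transcripts, a choice made after the values had been seen, 41 positions had 44.5 % in wt and 28.3 % in βerko MEFs, a difference of -16.2 points. The direction of the Sall4 promoter therefore depended on which 5′ end, and so on which positions, were used.

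Up to 3 kb after the annotated 5′ end, the 84 positions of Sall4 averaged 40.1 % in wt and 21.8 % in βerko MEFs, and 44 of them were at least 20 points lower and 7 higher. Beyond 3 kb, 23 positions had 84.5 % and 91.2 %, and 1 was at least 20 points lower and 2 higher. This division was made after the values had been seen. The 19 positions between 2000 and 2500 bp, in an intron, included none that was higher in βerko MEFs and averaged 34.0 % and 6.50 %. In this intron the position at chr2:168591282 was a DMP with 93.5 % of 46 reads in wt (82.1 to 98.6 %) and 14.1 % of 78 reads in βerko MEFs (7.26 to 23.8 %), and an adjusted p-value of 1.30e-16 by Fisher's exact test. The opposite direction was seen at 16986 bp, with 27.9 % in wt and 91.8 % in βerko MEFs.

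Utf1 encodes a chromatin-associated factor of embryonic stem cells and germ cells. All 43 covered positions lay in its coding exons, from 100 to 630 bp after the 5′ end, and none lay upstream. The value of its promoter therefore describes the start of the coding sequence. The stretch at chr7:147129783-147130038 on the plus strand held 32 of the positions and is shown with the 27 covered CpGs in capitals.
Utf1 coding exon: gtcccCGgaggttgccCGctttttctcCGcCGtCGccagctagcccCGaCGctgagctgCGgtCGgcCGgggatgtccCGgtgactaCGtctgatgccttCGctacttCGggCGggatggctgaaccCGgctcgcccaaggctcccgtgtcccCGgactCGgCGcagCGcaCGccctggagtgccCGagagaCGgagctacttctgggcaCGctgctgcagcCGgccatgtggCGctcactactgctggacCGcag

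The 43 positions averaged 53.1 % in wt and 23.1 % in βerko MEFs, and 39 were lower in βerko MEFs, 29 of them by at least 20 points. In wt MEFs 6 positions were below 20 %, and in βerko MEFs 27. The 2 positions that were at least 20 points higher were both strands of the CpG at 207 bp, with 17.2 % and 71.4 % on the plus strand and 16.7 % and 57.1 % on the minus strand. The nearest covered CpG before it, at 203 bp, had 41.9 % and 9.52 % on the plus strand and 70 % and 38.1 % on the minus strand. Adjacent CpGs thus differed in opposite directions, and for each of them both strands went the same way. The DMP of the gene, at chr7:147130180, had 88.9 % of 9 reads in wt (51.8 to 99.7 %) and 12.5 % of 24 reads in βerko MEFs (2.66 to 32.4 %), and an adjusted p-value of 0.0117 by Fisher's exact test.

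Zfp42, also called Rex1, encodes a zinc-finger protein used as a marker of undifferentiated stem cells. Its promoter had an observed to expected CpG ratio of 0.381. Among the classed promoters of the genes described here, it alone was methylated in wt and not in βerko MEFs. The stretch nearest to the 5′ end, with covered positions from -565 to -399 bp, at chr8:44392758-44392933 on the minus strand, is shown with its 5 covered CpGs in capitals.
Zfp42 upstream: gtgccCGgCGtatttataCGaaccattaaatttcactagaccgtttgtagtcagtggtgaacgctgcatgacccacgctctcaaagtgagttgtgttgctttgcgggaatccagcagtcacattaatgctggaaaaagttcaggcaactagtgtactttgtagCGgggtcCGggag

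These 5 CpGs had between 87.0 and 97.8 % in wt and between 54.6 and 91.3 % in βerko MEFs. Of the 8 promoter positions, 6 were at least 20 points lower, with the largest difference at -803 bp (94.9 % and 54.8 %), and 2 were slightly higher. Only at these 2 did the value in βerko MEFs lie within the range of wt MEFs. In the coding exon, more than 10 kb away, 19 positions averaged 85.0 % in wt and 86.9 % in βerko MEFs. In Zfp42 lower methylation was thus found in the promoter, while the coding exon was above 80 % on average in both libraries.

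Dppa3, also called Stella, encodes a factor of the oocyte and early embryo that protects methylation of the maternal genome. Its promoter was not covered. The covered positions formed a group of 6 in an intron, 1258 to 1295 bp after the 5′ end, and a group of 9 further on, 2244 to 2490 bp, of which the coding stretch at chr6:122578668-122578753 on the plus strand is shown with its 7 covered CpGs in capitals.
Dppa3 coding exon: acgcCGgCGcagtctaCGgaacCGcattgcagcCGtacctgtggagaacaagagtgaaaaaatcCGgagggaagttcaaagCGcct

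In this coding stretch all 7 positions were between 89.7 and 100 % in wt, and in βerko MEFs they ranged from 5.26 to 100 %. In βerko MEFs they had, in order, 67.7, 73.0, 81.3, 34.9, 69.8, 5.26 and 100 %. The position at 5.26 %, chr6:122578732 and 2304 bp after the 5′ end, was a DMP with 89.7 % of 39 reads in wt (75.8 to 97.1 %) and 5.26 % of 19 reads in βerko MEFs (0.133 to 26.0 %), and an adjusted p-value of 5.81e-08 by Fisher's exact test. The last CpG, at 2321 bp on the same strand, was at 100 % in both libraries. The difference at this DMP was therefore not shared by its nearest covered neighbour. The intron group had 24.4 % in wt and 12.1 % in βerko MEFs.

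Lin28a encodes an RNA-binding protein that blocks the maturation of let-7 microRNAs. It was unmethylated at the 5′ end and held the only hypermethylated DMP of these genes at the other end. Up to 3 kb after the 5′ end 30 positions averaged 12.8 % in wt and 4.79 % in βerko MEFs. Beyond 3 kb, a division again made after the values had been seen, 10 positions had 42.1 % and 62.6 %, and 5 of them were at least 20 points higher and 1 was lower. The position at chr4:133559353 in the 3′ UTR had 16 % of 25 reads in wt (4.54 to 36.1 %) and 90.7 % of 43 reads in βerko MEFs (77.9 to 97.4 %), and an adjusted p-value of 1.21e-07 by Fisher's exact test. The other covered position of the 3′ UTR, at 15142 bp, had 53.9 % and 83.3 %. Intron positions at 5626 and 5629 bp had 36.4 % and 9.09 % in wt and 78.6 % and 64.3 % in βerko MEFs. The lincRNA gene Gm13061 overlaps the 5′ end of Lin28a on the other strand.

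Tdgf1 encodes Cripto, the co-receptor through which cells of the early embryo sense Nodal. It had 3 covered positions in its promoter, shown in capitals in the stretch at chr9:110849067-110849112 on the minus strand, and 3 in an intron.
Tdgf1 upstream: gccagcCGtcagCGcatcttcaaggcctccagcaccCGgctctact
The promoter positions had 100, 100 and 75 % in wt and 100 % at each in βerko MEFs. The intron positions had from 83.3 to 94.4 % in wt and from 91.5 to 100 % in βerko MEFs. Tdgf1 was thus above 80 % in both libraries at all positions but the one at 75 % in wt, and it had no position that was at least 20 points lower.

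**Figure D4:**
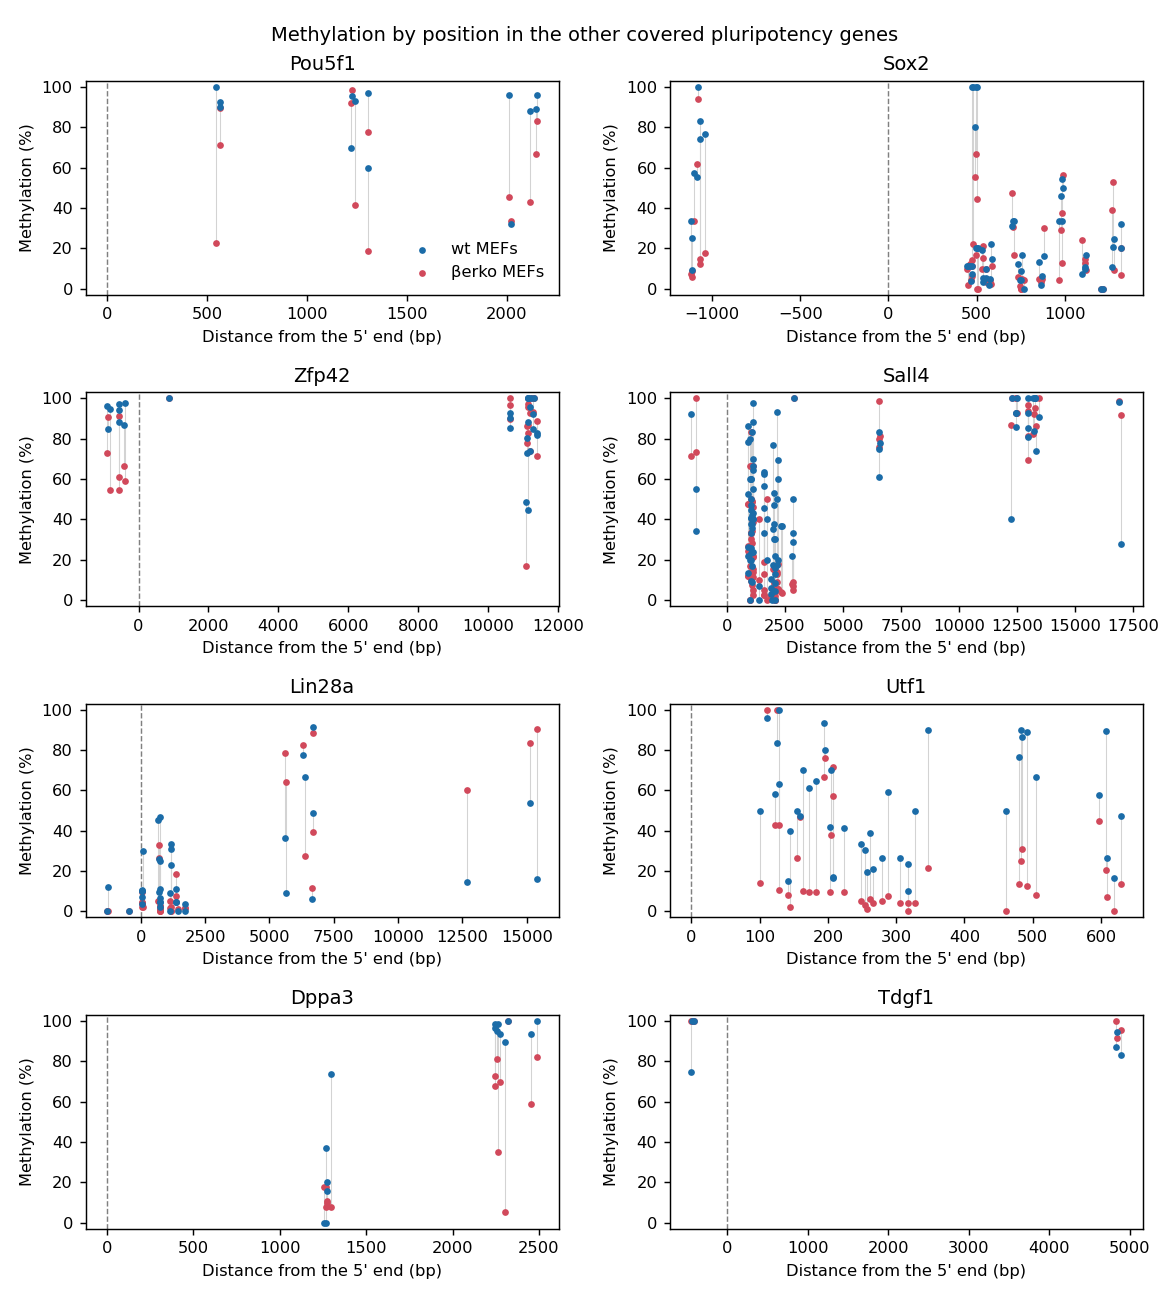
Methylation in percent of reads against the distance from the 5′ end in bp for the other 8 genes with covered positions, with blue points for wt and red points for βerko MEFs, a grey line joining both values of a position, and a dashed line at the 5′ end. In Sall4 the 84 positions up to 3 kb average 40.1 % in wt and 21.8 % in βerko MEFs, and the 23 positions beyond 3 kb average 84.5 % and 91.2 %.

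Taken over the windows, the DMP criteria (more than 4 reads in both libraries, one of them below 20 % and the other above 80 %) were met by 7 hypomethylated positions, of which 6 passed Fisher's exact test, and by 1 hypermethylated position, which passed. The hypomethylated DMPs made up 1.66 % of the positions of these genes beside 0.700 % of all positions, and those that passed are 0.642 % of all positions. The hypermethylated DMP made up 0.238 % beside 0.237 %, and 0.212 % of all positions passed. Of all 5787 hypomethylated DMPs with more than 4 reads 5313 passed, so that the test added little to the criteria. Most of the lower positions were intermediate in wt and so could not meet the criteria, as in Klf4, where 2 of 52 did.

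The strands of a CpG are covered by different reads, and 47 CpGs of these genes were covered on both. Methylation was at least 20 points lower in βerko MEFs on both strands of 19 of them and on one strand of 10. It was higher on both strands of 1, the Utf1 CpG at 207 bp, and on one strand of 3, and no CpG had its strands differ in opposite directions by this much. Lower on both strands were 8 of 11 such CpGs in Klf4, 7 of 17 in Sall4, 3 of 6 in Utf1 and 1 of 6 in Sox2. Over all 70667 CpGs covered on both strands, 7.73 % were lower on both. Of these 70667, 5131 were lower on one strand, 2048 were higher on both and 3231 were higher on one. The strands also differed from each other within a library, by a median of 8.96 points in wt and 6.03 points in βerko MEFs, compared with 1.80 and 1.35 points over all such CpGs. In 16 of the 47 CpGs, or 34.0 % beside 9.26 % of all such CpGs, the strands were at least 20 points apart in wt. In βerko MEFs this held for 11, or 23.4 % beside 7.93 %. For comparison, the median difference between the libraries, averaged over both strands and taken without its sign, was 22.9 points. Over all such CpGs it was 1.79 points. None of these comparisons allows for the wt level. In wt MEFs 44.9 % of the positions of these genes lay between 20 and 80 %, beside 17.2 % of all positions.

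**Figure D5:**
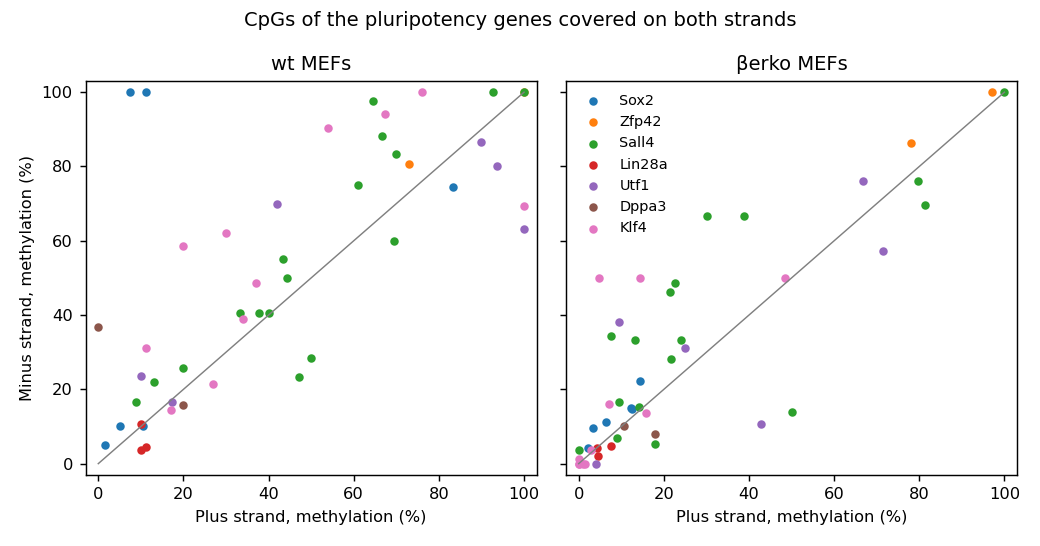
Methylation of the 47 CpGs covered on both strands, plus strand on the horizontal and minus strand on the vertical axis in percent of reads, for wt MEFs at the left and βerko MEFs at the right, coloured by gene, with a grey line where both strands are equal. In wt MEFs 2 CpGs of Sox2 lie at 100 % on the minus strand and 7.41 and 11.1 % on the plus strand.

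Of 30 other genes of the pluripotency network and the early embryo, 18 could be classed by their promoters, 2 were lower in βerko MEFs and none was higher. Tbx3, a T-box factor of the network, had 62.7 % in wt and 10.5 % in βerko MEFs over 32 positions. Gdf3, a ligand of the TGFβ family expressed in embryonic stem cells, had 90.3 % and 60.6 % over 4 positions. They were the only ones among the 18 whose class differed between the libraries. The median difference over the 18 promoters was -0.282 points, near the -0.231 points over all genes. Over the 7 classed promoters of the genes described above it was -6.26 points. Over the 7 classed fibroblast markers it was -10.3 points, and over the 2 classed epithelial markers -16.5 points. These medians do not allow for the wt level, since 77.4 % of all classed promoters were below 20 % in wt and could not be called lower. The 2 lower promoters are to be read beside the 5.39 % of all genes that were lower. They came from 10 that were at or above 20 % in wt, and of all such promoters 23.9 % were lower, so that their share was near that of all genes. Of the 14 network transcription factors 10 were classed, with 6 below 20 % in wt and 7 in βerko MEFs. Among the 16 genes of embryonic stem cells and the early embryo 8 were classed, with 4 above 80 % in wt and 3 in βerko MEFs.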

How the data were processed

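RRBS was carried out by the authors with 1 library per genotype. Reads of a Genome Analyser IIx were mapped by them with the Genomatix Mining Station, whose version is not given in the sources used here. The submitters' processing notes name CASAVA 1.4 and mm9. For cytosines read in both libraries the authors deposited methylation in percent of reads, with no coverage beside it. For DMPs they deposited read counts per position and library. The tables of DMPs also hold the authors' gene annotation, which was not used.

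Gene models were taken from GENCODE M1 on NCBIM37, and the 5′ end was that of the gene over all transcripts. All 10 genes matched by symbol. A mean difference of at least 20 percentage points over at least 3 positions was counted as lower or higher. Each strand of a CpG was a position. Values at one cytosine depend on reads, and reads that share a fragment give neighbouring positions alike values. At DMPs, methylated and unmethylated reads were compared with Fisher's exact test (two-sided), with Benjamini-Hochberg adjustment over 826937 positions, untested positions at a p-value of 1, and a threshold of 0.05. Intervals are Clopper-Pearson intervals at 95 %. The procedures were tested on simulated data with independent reads and positions. Shared fragments and PCR copies were not simulated.

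The genes, the gene lists and the rules were chosen with earlier results of these data known. Named were all 10 genes, positions that were DMPs or differed by at least 50 points, and other genes whose promoter or class differed. Further positions were named after their values had been seen, as neighbours for comparison. Alternatives covered the promoter and gene windows, strands, number of positions, thresholds, medians and coverage. Sequences were read from NCBIM37. Python 3.11.15 was used for all steps, with SciPy 1.17.1 for the tests and intervals, pysam 0.24.0 for sequences, pandas 2.3.3 and NumPy 2.4.6 for tables, and matplotlib 3.10.9 for the plots.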

Additional observations from a re-analysis of the deposited data

How the results depend on the processing

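The 4 genes with a lower window mean were 4 with the gene body alone and with averaged strands, and 5 with 5 kb upstream and with medians. With medians Sall4 had -24.3 points. None was higher in these alternatives. Among the promoters of the 10 genes, the 3 lower ones became 0 with a promoter of 500 bp upstream to 100 bp downstream and with a difference of 30 points. In the shorter promoter fewer than 3 positions of each were left, Sox2 had none, and the differences of Zfp42 (-29.4 points) and Utf1 (-35.7 points) were not smaller. The higher promoter, Sall4, was lost (0) with a promoter of 1 kb upstream to 500 bp downstream, with 500 bp upstream to 100 bp downstream, with at least 5 positions, with a difference of 30 points, with medians, and from the 5′ end over protein-coding transcripts, an alternative chosen after seeing the data, in which its difference reversed to -16.2 points. Among the other pluripotency genes, the 2 lower promoters became 1 with 500 bp upstream to 100 bp downstream, with at least 5 positions and with 30 points, and 6 with 10 points, while with at least 1 position 1 was higher. With thresholds of 10 and 90 %, the hypomethylated DMPs were 1, of which 1 passed the test, and the hypermethylated DMPs were 0, of which 0 passed. Stricter settings leave fewer positions or genes by construction. No paired analysis was possible because there was 1 library per genotype. Without replicates the spread between cultures is unknown, and without coverage so is the depth of positions outside the deposited DMPs. Promoters without CCGG could not be measured.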

Other observations

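Of the 30 other pluripotency genes, 5 had a covered promoter position but fewer than 3, and they are given as values only. Dnmt3l, which encodes a cofactor of the de novo DNA methyltransferases, had 1 position with 8.33 % in wt and 70.7 % in βerko MEFs. Esrrb had 2 positions with a mean of 47.6 % and 53.3 %. The remaining 3 had 1 position each, with 88.1 % and 79.0 % at Dppa4, 55.3 % and 60 % at Dppa5a, and 97.5 % and 100 % at Lefty1. The other 7 genes had no covered promoter position.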
